A study of Homo sapiens with 54 samples.

Results

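Broad H3K27Ac domains were taken as the rows of the vehicle H3K27Ac peak list on chromosomes 1 to 22 and X that were at least 5000 bp wide. Of 88869 vehicle regions, 1706 met that limit, which was 1.92% of the regions and 16.0% of the acetylated sequence (13.7 of 85.6 Mb). The members were thus selected on the measured width of their vehicle H3K27Ac signal, so width and height of that list are given as a description and support nothing. The readouts that the choice did not use were the regions of 7 other antibodies in each treatment, the H3K27Ac list of R5020 cells, and the genes and start sites inside the domains.

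H3K27Ac, acetylation of lysine 27 on the tail of histone H3, marks active promoters and active enhancers. Where many such elements lie close together the marked sequence can merge into a long domain, and in many cell types long domains cover genes of cell identity. The progesterone receptor (PR) is a nuclear receptor that binds DNA when it holds a progestin, while Maf1 is a repressor of RNA polymerase III and Brf1 a subunit of the initiation factor TFIIIB, which brings polymerase III to tRNA genes.

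The cells were T47D, an established human breast cancer line of luminal type that expresses estrogen and progesterone receptors. They were given ethanol, the vehicle, or R5020, a synthetic progestin, for 1 h, and chromatin immunoprecipitation with sequencing was done for 8 targets. These were H3K27Ac, PR, Maf1, Brf1 and 4 parts of polymerase III, namely POLR3A, POLR3C and the alternative subunits POLR3G and POLR3GL. The labels give 3 libraries for each target and treatment, but the deposited values are 1 peak list for each, 16 in all, so there was no replicate spread and no test, and depth is unknown. Titles and tags disagree for 4 libraries: replicate 1 of POLR3G, of POLR3GL and of POLR3C and replicate 2 of POLR3C have R5020 in the title and ethanol in the tag, and statements on those subunits follow the titles.

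The lists differed much in length. PR had 6662 regions with vehicle and 173115 with R5020, Maf1 3048 and 22638, and H3K27Ac 88869 and 112542. The labelled cell type was checked against its markers: 24 of 24 luminal transcription factor genes and 18 of 18 luminal keratin, junction and other epithelial genes overlapped a vehicle H3K27Ac region, as did 14834 of all 19974 protein-coding genes, 13 of 18 basal and mesenchymal markers and 9 of 22 marker genes of blood, liver, muscle, nerve and stroma. Lists of broadly active genes were as complete, with 30 of 30 immediate early genes, 24 of 24 ribosomal protein genes and 28 of 28 polymerase III genes.

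Start sites and their sequences were read from a RefSeq table on GRCh38.p14 that gives 250 bases before and 50 bases after a start. The domains held 1354 listed starts of 1006 genes. Each window was searched on both strands for the progesterone response element, an inverted repeat with the arms GNACA and TGTNC separated by any 3 bases (N is any base). It was found in 3 of the 1354 windows (0.222%, 95% Wilson interval 0.0754 to 0.649) against 137 of all 34961 windows (0.392%). These 3 windows belong to 2 genes, SMARCD2, which encodes a subunit of the SWI/SNF chromatin remodelling complex, and DDX3X, which encodes an RNA helicase and is listed with 2 starts that share the match. Both are shown because a PR region lay on each window with R5020. Capitals mark the match.
SMARCD2 promoter window, chr17:63838679-63838978, minus strand: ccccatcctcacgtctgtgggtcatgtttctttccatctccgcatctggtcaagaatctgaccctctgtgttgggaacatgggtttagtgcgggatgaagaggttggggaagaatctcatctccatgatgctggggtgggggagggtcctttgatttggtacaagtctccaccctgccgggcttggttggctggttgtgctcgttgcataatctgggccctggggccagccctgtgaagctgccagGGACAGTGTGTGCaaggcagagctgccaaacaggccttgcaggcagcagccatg
DDX3X promoter window, chrX:41333912-41334211, plus strand: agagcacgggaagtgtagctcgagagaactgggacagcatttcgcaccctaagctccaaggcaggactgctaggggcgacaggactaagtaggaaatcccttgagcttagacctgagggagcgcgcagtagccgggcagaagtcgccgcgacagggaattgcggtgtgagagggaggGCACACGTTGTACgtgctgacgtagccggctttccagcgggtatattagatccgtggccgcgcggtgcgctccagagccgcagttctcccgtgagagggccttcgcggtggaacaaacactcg

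At SMARCD2 the match began 4 bases before the start site and its centre lay 1 bp from the summit of the R5020 PR region there. That PR region had a fold enrichment of 34.5 with R5020, and the vehicle region over the match had 6.02. At DDX3X the R5020 PR region had a fold of 8.43 with its summit 92 bp from the match, and no vehicle PR region lay over the match. Whether a vehicle PR region lay elsewhere on that window is not listed here. Fold enrichment here and below is the authors' ratio of signal to background at the summit of a peak, and it is compared only within a list or set side by side.

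Shorter motifs were searched in the same windows. The single-arm sequence AGAACA was in 8.42% of windows in domains and in 14.8% of all windows. The forkhead sequence TGTTTAC was in 2.66% against 3.42%, and the AP-1 sequence TGANTCA in 6.43% against 7.68%. AGAACA can overlap the full element. Among the 15612 windows in any vehicle H3K27Ac region the full element was in 0.231%, AGAACA in 8.16%, TGTTTAC in 2.34% and TGANTCA in 4.43%. Beside these acetylated starts the windows in domains were not lower for the shorter motifs, and the share with TGANTCA was higher (6.43%, 5.24 to 7.86). Windows in domains had a median GC content of 66.3% and a median of 25 CpG dinucleotides, against 58.7% and 14 over all windows. The windows in any vehicle H3K27Ac region had 66.0% and 26, so the base composition was that of acetylated starts in general.

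An R5020 PR region lay on 75.7% of the windows in domains, on 75.5% of those in regions of 3000 to under 5000 bp and on 35.1% of all windows. With vehicle the shares were 34.3%, 24.9% and 7.31%. Windows of 4 luminal genes are shown to make the range visible, for each gene the start with the most CpG among its starts in a domain, with each CpG in capitals. XBP1 encodes a transcription factor of the secretory stress response, GATA3 and FOXA1 encode lineage factors of luminal cells, and KRT8 encodes a keratin of simple epithelia.
XBP1 promoter window, chr22:28800520-28800819, minus strand: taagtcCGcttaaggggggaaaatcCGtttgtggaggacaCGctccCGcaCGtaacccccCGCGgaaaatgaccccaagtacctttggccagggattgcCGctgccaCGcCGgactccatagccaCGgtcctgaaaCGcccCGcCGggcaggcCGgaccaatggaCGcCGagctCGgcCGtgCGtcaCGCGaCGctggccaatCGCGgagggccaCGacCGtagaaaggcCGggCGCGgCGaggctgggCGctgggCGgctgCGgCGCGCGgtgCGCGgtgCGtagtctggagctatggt
GATA3 promoter window, chr10:8053391-8053690, plus strand: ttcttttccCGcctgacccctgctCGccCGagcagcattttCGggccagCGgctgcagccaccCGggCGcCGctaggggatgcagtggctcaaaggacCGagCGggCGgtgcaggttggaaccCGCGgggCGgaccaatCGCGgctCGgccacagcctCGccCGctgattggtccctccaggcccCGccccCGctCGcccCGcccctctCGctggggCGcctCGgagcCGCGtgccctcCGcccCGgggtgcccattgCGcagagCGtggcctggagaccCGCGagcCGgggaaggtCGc
FOXA1 promoter window, chr14:37595200-37595499, minus strand: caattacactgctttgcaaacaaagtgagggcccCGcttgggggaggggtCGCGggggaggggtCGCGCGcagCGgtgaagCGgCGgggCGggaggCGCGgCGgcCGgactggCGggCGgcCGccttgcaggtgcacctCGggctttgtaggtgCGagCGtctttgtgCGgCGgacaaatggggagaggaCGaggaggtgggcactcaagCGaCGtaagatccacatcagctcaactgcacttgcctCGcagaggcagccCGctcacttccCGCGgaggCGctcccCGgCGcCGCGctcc
KRT8 promoter window, chr12:52926420-52926719, minus strand: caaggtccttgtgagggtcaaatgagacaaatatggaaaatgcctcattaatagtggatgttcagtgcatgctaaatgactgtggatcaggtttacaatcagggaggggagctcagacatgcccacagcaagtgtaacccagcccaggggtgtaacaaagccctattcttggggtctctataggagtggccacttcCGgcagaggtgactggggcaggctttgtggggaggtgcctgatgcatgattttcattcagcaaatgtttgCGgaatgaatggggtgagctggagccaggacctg

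The XBP1 window held 40 CpG, the GATA3 window 36, the FOXA1 window 34 and the KRT8 window 2. PR regions lay on the XBP1, GATA3 and FOXA1 windows in both treatments. No PR region lay on the KRT8 window in either list. That window lay outside the widest of the 3 KRT8 domains, which held 4 vehicle and 8 R5020 PR summits. None of the 4 windows held the full element.

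MicroRNAs are short RNAs that pair with messages mainly through bases 2 to 8, the seed. Of 1558 hairpins in the RefSeq table, 65 (4.17%) lay in a domain and 277 in any vehicle H3K27Ac region. The mature forms below were chosen, after the overlap was known, as familiar products of hairpins in domains, with the seed in capitals. Some of them, such as miR-16-5p, miR-24-3p and miR-196a-5p, are also made from a hairpin at another locus.
hsa-miR-21-5p: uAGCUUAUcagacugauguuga
hsa-miR-205-5p: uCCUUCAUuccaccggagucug
hsa-miR-196a-5p: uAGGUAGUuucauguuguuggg
hsa-let-7e-5p: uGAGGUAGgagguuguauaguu
hsa-miR-15b-5p: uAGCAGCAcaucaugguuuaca
hsa-miR-16-5p: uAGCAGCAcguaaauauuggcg
hsa-miR-23a-3p: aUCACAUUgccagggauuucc
hsa-miR-27a-3p: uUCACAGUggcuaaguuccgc
hsa-miR-24-3p: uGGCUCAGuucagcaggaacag

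The hairpin of miR-21-5p lay in a domain of 24309 bp that also covered VMP1, had 5 vehicle and 12 R5020 PR summits and was 100% covered by R5020 H3K27Ac regions. The hairpin of miR-205-5p, an epithelial miRNA, lay in a domain of 10041 bp with 1 vehicle and 6 R5020 PR summits. The hairpin MIR196A2 lies among the HOXC genes, in a domain of 31476 bp. miR-15b-5p and miR-16-5p share the seed AGCAGCA, and the hairpins MIR15B and MIR16-2 lay in a single domain of 7381 bp, with no vehicle PR summit and 1 with R5020. The seeds of miR-23a-3p and miR-27a-3p differ from one another, and the hairpins MIR23A, MIR27A and MIR24-2 lay in a domain of 9233 bp with 1 vehicle and 5 R5020 PR summits.

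The domains ran from 5001 to 40434 bp with a median of 6736 bp. Only 287 (16.8%) reached 10000 bp, 42 reached 20000 bp and 9 reached 30000 bp. Their median summit fold was 13.8, against 12.1 in the 3408 regions of 3000 to under 5000 bp and 3.62 in the 83755 narrower regions. The domains nearest the limit were at PPIL2 (5001 bp, fold 11.0), FOXN1 (5003 bp, fold 7.14) and GSE1 (5003 bp, fold 4.98). Just outside it were regions of 4999 bp on chromosome 10 (fold 18.1), 4999 bp on chromosome 17 (fold 4.71) and 4998 bp on chromosome 12 (fold 5.17).

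The widest domain, chr6:12281766-12322199 in GRCh38, covered EDN1, the gene of the vasoconstrictor peptide endothelin-1, over 40434 bp. The next covered SLC7A5, an amino acid transporter gene, over 40032 bp (chr16:87833748-87873779). The third lay at the noncoding gene LOC105369458, 91152 bp from TRPC6, over 37393 bp (chr11:101323019-101360411). Domains of 35361, 34275 and 29832 bp lay in GSE1, a corepressor-associated gene. XBP1 was covered over 33378 bp, GATA3 over 32167 bp, the HOXC cluster with HOTAIR over 31476 bp and AMOTL2 over 31251 bp. Height and width were not the same order: PATJ, a cell polarity gene, had the highest fold, 31.2, over only 8705 bp.

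**Figure D1:**
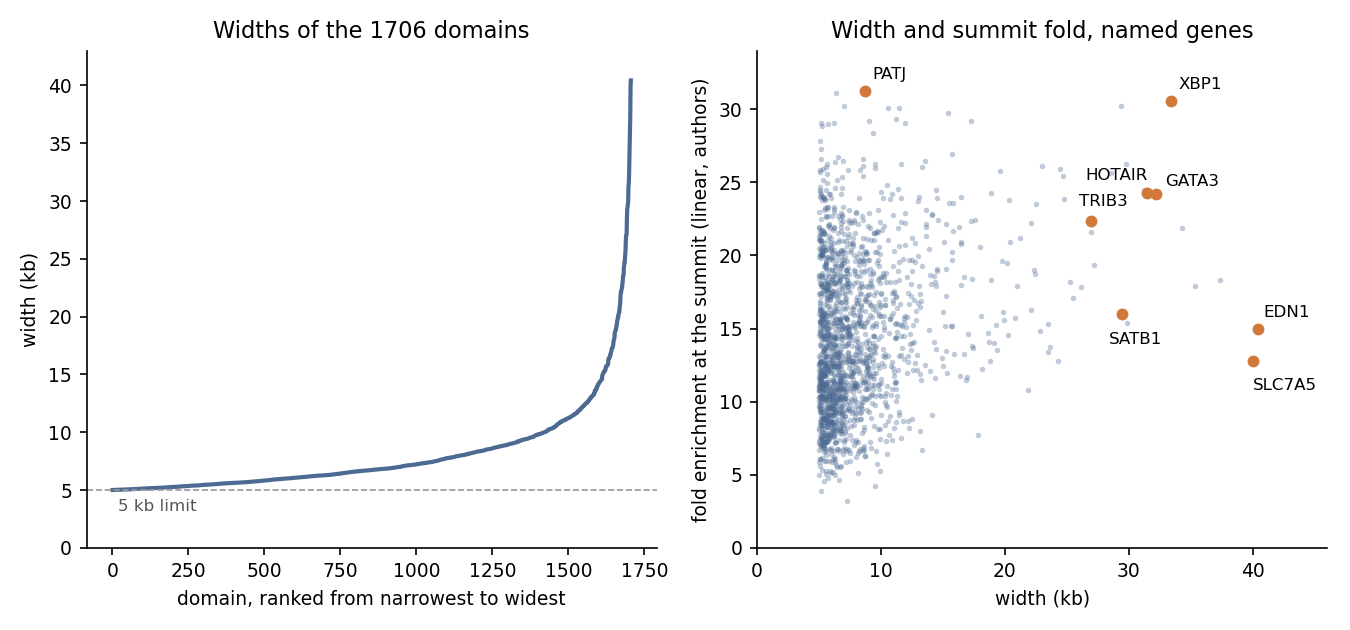
Left, width in kb (vertical axis) of the 1706 domains ranked by width (horizontal axis), with a dashed line at 5 kb. Right, authors' summit fold (vertical axis, linear) against width in kb, 1 point per domain, with named domains in orange. Most domains lie close to the limit, and the few near 40 kb, at EDN1 and SLC7A5, have folds of 15.0 and 12.8, below the 31.2 of PATJ.

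PR was on most domains in vehicle cells. With vehicle, 1175 domains (68.9%, interval 66.6 to 71.0) overlapped a PR region by at least 1 bp, where 6.06% of all vehicle H3K27Ac regions did. With R5020, 1693 domains (99.2%) did, where the background was 39.1%. A wide region has more room to meet a peak, so densities are given beside the shares. Domains held 130 vehicle PR summits per Mb, regions of 3000 to under 5000 bp held 109 and regions under 3000 bp held 36.0. With R5020 the densities were 471, 478 and 408 per Mb. Per unit of acetylated sequence the domains were thus richest in PR with vehicle, and slightly below the class next in width with R5020.

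Between the lists 1170 domains had PR in both treatments, 523 with R5020 alone, 5 with vehicle alone and 8 in neither. The domains held 26.7% of all vehicle PR summits (1776) and 3.73% of all R5020 PR summits (6464). When the top 6662 R5020 regions were taken, equal in number to the vehicle list, 43.1% of domains had PR, less than the 68.9% with vehicle. The median R5020 PR fold was 8.78 for summits in domains, 6.73 for those in other vehicle H3K27Ac regions and 5.71 for those in none. With vehicle the medians were 4.39, 3.84 and 4.28.

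Single domains showed how far the counts went. The LOC105369458 domain had 13 PR summits with vehicle, the most of any domain, and 20 with R5020. GATA3 had 10 and 20, EDN1 7 and 20, and XBP1 6 and 19. The HOXC domain went from 3 to 23, the most with R5020. SLC7A5 had 2 and 17. The 13 domains without any R5020 PR region included those in JAG2, ACTN4 and SEMA3B and a domain within the PGR gene itself (chr11:101030560-101035758, 5199 bp), which had 1 vehicle PR summit.

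**Figure D2:**
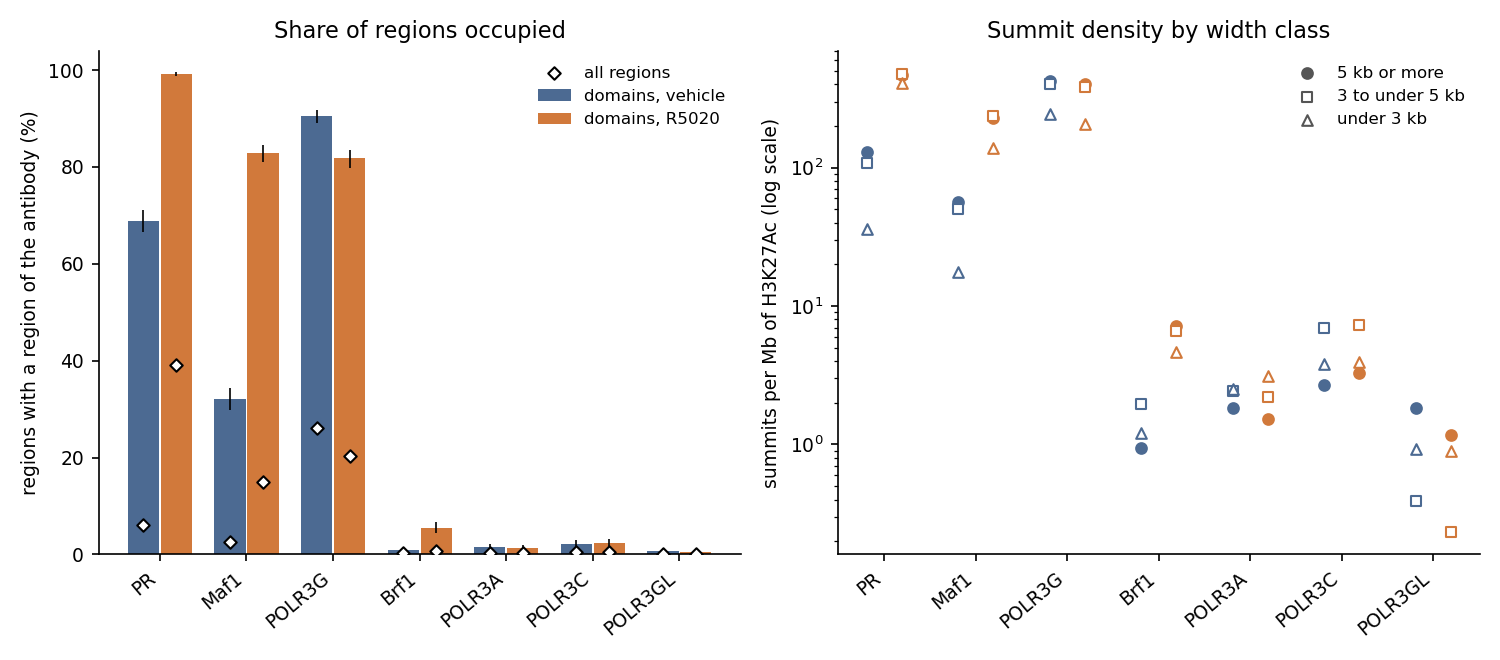
Left, share of domains that overlap a region of each antibody (bars, vehicle blue and R5020 orange, lines 95% Wilson intervals) and the share of all vehicle H3K27Ac regions (diamonds). Right, summits per Mb of vehicle H3K27Ac sequence on a log axis for 3 width classes (filled circles 5 kb or more, squares 3 to under 5 kb, triangles under 3 kb). PR and Maf1 bars are higher with R5020, POLR3G bars are lower, and the PR circle with R5020 (471) nearly meets its square (478).

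Maf1, the polymerase III repressor, followed the same order. With vehicle 547 domains (32.1%, 29.9 to 34.3) had a Maf1 region, where the background was 2.66%, and with R5020 1414 (82.9%, 81.0 to 84.6), where it was 15.0%. Densities went from 56.8 to 230 per Mb in domains and from 49.9 to 235 in the class of 3000 to under 5000 bp. Maf1 was on 872 domains with R5020 alone and on 5 with vehicle alone. Lists cut to the top 3048 regions gave 32.1% with vehicle and 32.9% with R5020. The HOXC domain had 0 Maf1 summits with vehicle and 10 with R5020, XBP1 4 and 11, and FOXA1 5 and 11, while EDN1 had 9 and 8.

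Maf1 in the domains lay mostly where PR lay. Of 3154 R5020 Maf1 regions with a summit in a domain, 2924 (92.7%, 91.7 to 93.6) overlapped an R5020 PR region, against 87.6% of those in other vehicle H3K27Ac regions. With vehicle 570 of 779 (73.2%, 70.0 to 76.2) overlapped a vehicle PR region, against 51.4%. Read the other way, 40.5% of R5020 PR regions in domains overlapped Maf1, against 31.2% in the other H3K27Ac regions. The regions compared come from lists of unequal length, and their overlap was not tested.

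Brf1 was on few domains, and on more with R5020. With vehicle 14 domains (0.821%) had a Brf1 region against a background of 0.250%, and with R5020 93 (5.45%, 4.47 to 6.63) against 0.635%. Per Mb, vehicle Brf1 summits were sparser in domains (0.948) than in the class of 3000 to under 5000 bp (1.96). With R5020 the densities were 7.15 and 6.57. All 14 domains with vehicle Brf1 had it in both lists, and 79 domains had it with R5020 alone. Of these 79, all had an R5020 PR region and an R5020 Maf1 region and 4 had R5020 POLR3A. Over all domains the shares with R5020 PR and Maf1 were already 99.2% and 82.9%. The 98 R5020 Brf1 regions with a summit in a domain overlapped PR in 98 cases, Maf1 in 94 and POLR3A in 15, against 246, 275 and 149 of the 358 in other vehicle H3K27Ac regions. With vehicle 11 of 13 overlapped POLR3A. The R5020 Brf1 regions in domains were modest, with a median fold of 4.89 against 26.7 for the 13 with vehicle, and lists cut to the top 370 regions gave 0.821% with vehicle and 0.762% with R5020.

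Domains with Brf1 in the R5020 list alone included FKBP5, which encodes a receptor co-chaperone and a known progestin target (fold 4.82), NFKBIA, which encodes the inhibitor of NF-kappaB (5.67), MUC1, a luminal mucin gene (5.49), and DDB2, a DNA repair gene (9.97). The SMARCD2 domain, whose promoter is printed above, had Brf1 in both lists, with folds of 3.42 and 8.17, and no POLR3A in either.

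POLR3A, the largest subunit of polymerase III, was on 25 domains with vehicle (1.47%, background 0.361%) and 22 with R5020 (1.29%, background 0.390%), of which 19 were the same domains. Per Mb it was no denser in domains than elsewhere, 1.82 with vehicle against 2.43 in the class of 3000 to under 5000 bp. In all, 103 domains had POLR3A or Brf1 in either list. The domains held 11 tRNA genes, in 8 domains, and every one of these 8 had both POLR3A and Brf1 in both treatments. The domain at LASP1, with TRC-GCA4-1, had a POLR3A fold of 52.6 with vehicle and 67.1 with R5020, and a Brf1 fold of 41.5 and 84.9. At LASP1 these are the highest folds among 2 overlapping regions per list, of which 1 had its summit inside the domain. The domain at ZFP36, with TRI-TAT1-1, overlapped a POLR3A region with folds of 49.8 and 63.0, whose summit lay outside the domain in both lists. Away from tRNA genes, the domain in CAMK1D had POLR3A folds of 19.1 and 15.7 and Brf1 folds of 7.38 and 19.0.

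The other subunits split into a common and a rare pattern. POLR3G, 1 of 2 alternative subunits of the polymerase, was on 1545 domains with vehicle (90.6%, 89.1 to 91.9, background 26.1%) and 1395 with R5020 (81.8%, 79.9 to 83.5, background 20.4%). It covered 39.8% and 29.6% of the domain sequence. Summit densities were 421 and 401 per Mb in domains and 401 and 380 in the class next in width. POLR3G was on 197 domains with vehicle alone and on 47 with R5020 alone. Domains with many summits included GSE1 (22 with vehicle and 27 with R5020 in one domain, 21 and 20 in another), SLC7A5 (23 and 22) and TRIB3 (17 and 22), while GATA3 went from 6 to 17. POLR3G regions of at least 5000 bp numbered 328 and 145, of which 48.5% and 49.7% lay over a domain. These changes rest on the title of a POLR3G library whose tag says ethanol.

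POLR3C was on 36 domains with vehicle (2.11%, background 0.448%) and 39 with R5020 (2.29%, background 0.473%), with 27 in common. It was sparser in domains than in the class next in width, 2.70 against 6.97 summits per Mb with vehicle. POLR3GL, the alternative to POLR3G, was on 12 domains with vehicle (0.703%, background 0.137%) and 9 with R5020 (0.528%, background 0.117%). Lists cut to the top 603 regions gave the other order, 0.352% with vehicle and 0.528% with R5020. Region counts were lower with R5020 in some domains, as at MALAT1, a nuclear noncoding RNA gene (8 with vehicle, 2 with R5020), and GATA3 (3 and 0), and were higher with R5020 in others, as at DSTN (0 and 3), NEAT1 (0 and 2) and the 5199 bp domain within PGR (1 and 3). The counts are small, and 2 of the R5020 POLR3C libraries and 1 of POLR3GL carry the conflicting tag.

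Where in a domain the summits lay differed by antibody and treatment. Each domain was cut into 10 equal bins. With vehicle, bins 5 and 6 held 16.3% and 15.6% of PR summits and bins 1 and 10 held 2.87% and 2.25%. With R5020 the same bins held 11.0%, 11.0%, 6.45% and 6.70%, a flatter profile. The median distance from a PR summit to the H3K27Ac summit of its domain was 693 bp with vehicle and 1898.5 bp with R5020. For Maf1 it was 649 and 1201 bp. For POLR3G it was 2044.5 and 1972 bp, and its bins ran from 7.51% to 11.3% with vehicle and from 6.86% to 11.4% with R5020, a shape like that of R5020 PR. Summits on chromosome 8, which has no listed start, were left out of the shares that follow. Within 1 kb of a listed start lay 28.7% of vehicle PR summits and 18.7% of R5020 PR summits. For Maf1 the shares were 44.1% and 27.7%, and for POLR3G 17.7% and 19.5%. For POLR3C they were 66.7% (24 of 36) and 54.5% (24 of 44). The R5020 lists of POLR3G and POLR3C carry the conflicting tags.

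**Figure D3:**
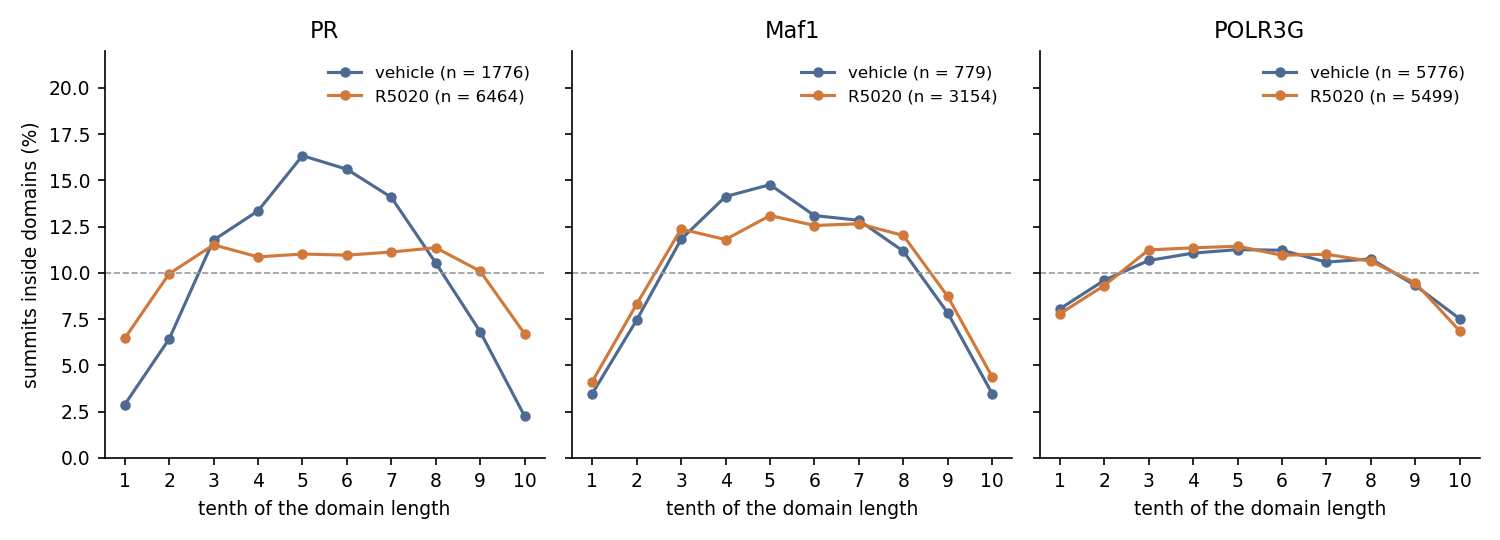
Share of the summits inside domains (vertical axis, %) in each of 10 equal bins along the domain (horizontal axis), for PR, Maf1 and POLR3G, vehicle blue and R5020 orange, with n in the legend and a dashed line at an even spread. Vehicle PR peaks at 16.3% in bin 5, while R5020 PR stays near 11.0% in the middle bins and POLR3G has a similar shape in both lists.

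With R5020 every domain still met an H3K27Ac region, as did 3403 of the 3408 regions of 3000 to under 5000 bp and 67.2% of all vehicle regions. R5020 regions covered 90.6% of the domain sequence and a median of 93.9% of a domain, and 1108 domains (64.9%, 62.7 to 67.2) were covered over at least 90% of their length, where 27.4% of all vehicle regions were. In the class of 3000 to under 5000 bp the share was 50.2%. Only 39 domains were covered over less than 50%. Of the domains, 1182 (69.3%) met 2 or more R5020 regions, up to 17. In the class of 3000 to under 5000 bp 55.0% did, and 11.6% of all vehicle regions. An R5020 region of at least 5000 bp was met by 994 domains (58.3%, 55.9 to 60.6). In the class next in width 10.3% met one, and 3.21% of all vehicle regions. Because the vehicle width chose the domains, their R5020 widths are no independent measure, and the reverse is given too. Of 1391 R5020 regions of at least 5000 bp, 995 (71.5%, 69.1 to 73.8) lay over a vehicle domain and 69.0% were covered by vehicle regions over at least 90%. Of the same 1391 regions, 54.2% met 2 or more vehicle regions.

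Several long domains were met by a single R5020 region. That region was 32012 bp wide at GATA3, 16624 bp at ZNF217 and 22822 bp at SIAH2. XBP1 was met by 2, the wider of 17363 bp. EDN1 was met by 13, the widest of 14832 bp, and was 91.6% covered. ESR1, with its widest domain of 16363 bp, was met by 9 regions, the widest of 6165 bp. PATJ, with the highest vehicle fold, was 62.6% covered in 7 pieces.

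The least covered domain, 6.14%, lay at chr4:74580265-74586663 (6399 bp), where the nearest protein-coding gene was AREG, the gene of the growth factor amphiregulin, 125259 bp away. It overlapped 2 vehicle PR regions, of which 1 had its summit inside, and the higher fold was 15.4. The 1 R5020 PR region on it had a fold of 12.9, with its summit outside the domain. A domain on chromosome 11 with no gene, 6067 bp wide, was 8.72% covered. Those in GALNT10, ANKRD26 and PCED1B were 22.0%, 24.7% and 25.9% covered. Each of these 5 had an R5020 PR region, as did 99.2% of all domains. None had an R5020 Maf1 region, where 82.9% of all domains did. The domain within PGR that had no R5020 PR was 31.9% covered.

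In the other direction 396 R5020 regions of at least 5000 bp lay over no vehicle domain, though 260 of them met a vehicle region of 3000 bp or more and none met no vehicle region at all. Among them, regions of 15396 bp at ST3GAL4, 13849 bp at EVL and 12050 bp at FOXK2 had 8 R5020 PR summits each. The density of R5020 PR summits was 488 per Mb in these 396 and 434 per Mb in the 712 domains that met no R5020 region of at least 5000 bp.

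**Figure D4:**
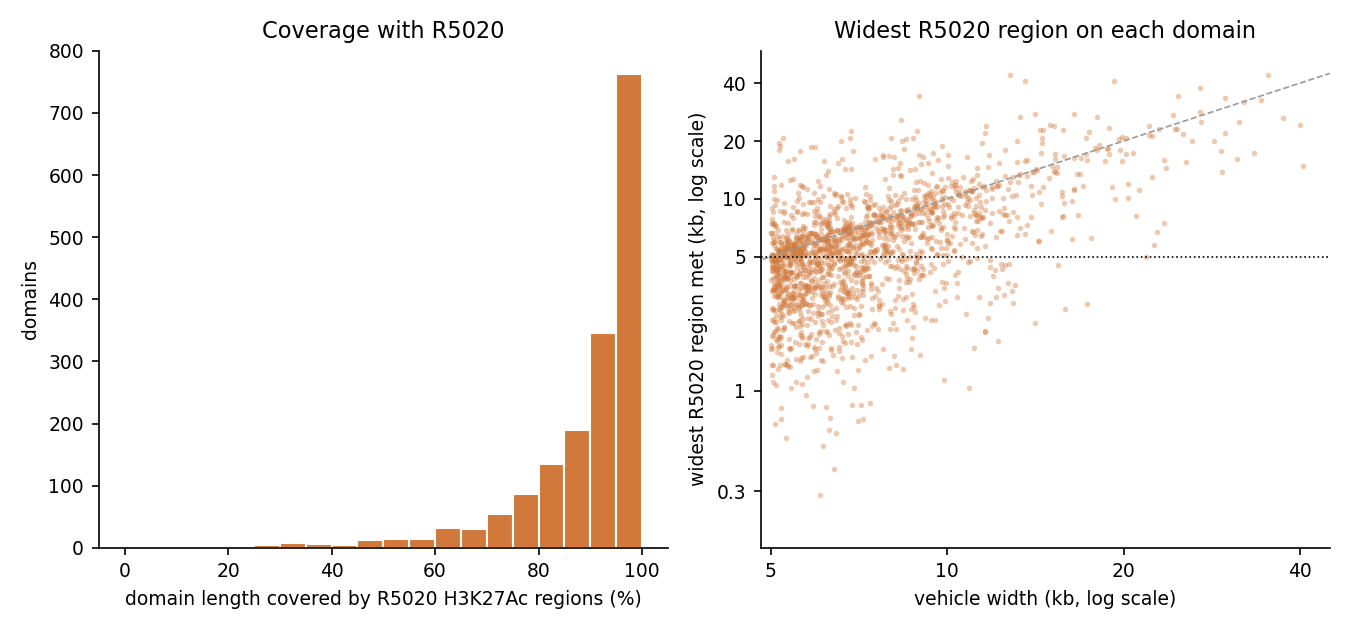
Left, number of domains by the share of their length covered by R5020 H3K27Ac regions. Right, the widest R5020 region met against vehicle width, 1 point per domain, both in kb on log axes, with a dashed line of equal width and a dotted line at 5 kb. Coverage is mostly near its median of 93.9%, while 712 points lie under the dotted line.

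Coverage with R5020 was set beside occupancy. The 1414 domains with R5020 Maf1 had a median coverage of 95.2%, and 72.1% (69.7 to 74.4) were covered over at least 90%. The 292 without it had 83.6% and 30.1% (25.2 to 35.6). With R5020 POLR3G the values were 95.2% and 71.8% for 1395 domains, and without it 84.0% and 34.1% for 311. With vehicle PR they were 94.0% and 66.4%, and without it 93.6% and 61.8%. Domains ranked by R5020 PR summits per kb into 4 groups of 426 or 427 had 49.4%, 62.9%, 72.1% and 75.4% covered over at least 90%. Vehicle height moved with these splits, with a median fold of 14.6 with R5020 Maf1 and 10.8 without. It was 15.0 and 10.2 for R5020 POLR3G, 14.5 and 12.2 for vehicle PR, and 13.0, 13.6, 14.0 and 14.7 in the 4 groups. Median widths were 6853.5 bp with R5020 Maf1 and 6143 without, 6917 and 6061 for R5020 POLR3G, and 7039 and 6175 for vehicle PR. In the 4 groups they were 6725, 6936.5, 6663.5 and 6552 bp. The part of height and width in the result was not tested.

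Wider domains had more of each common factor. From 5000 to under 6000 bp (574 domains) 58.4% had vehicle PR, 25.3% vehicle Maf1 and 39.2% met an R5020 region of at least 5000 bp. At 20000 bp or more (42 domains) the shares were 100%, 83.3% and 97.6%. Density also differed with width for vehicle PR, 123 against 164 summits per Mb, and for vehicle Maf1, 55.7 against 80.9. For R5020 PR it was 487 and 493, and for R5020 Maf1 236 and 238.

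Of the 1706 domains 1285 (75.3%) lay over the span of a protein-coding gene, where the background was 62.0% and the share was 78.1% in the class of 3000 to under 5000 bp. The start table has no entry on chromosome 8, and off that chromosome 747 of 1606 (46.5%, 44.1 to 49.0) held a listed start, where the background was 12.5% and the class next in width had 48.3%. Domains with and without a start had vehicle PR alike in share, 68.3% and 68.3%. They differed for vehicle Maf1 (41.9% and 22.4%), R5020 Maf1 (87.7% and 77.9%), vehicle POLR3C (3.88% and 0.698%) and the sequence covered by vehicle POLR3G (51.2% and 29.3%). Their median H3K27Ac folds were 17.0 and 11.7, and their median widths 6835 and 6698 bp.

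Among all 19974 protein-coding genes 1373 (6.87%) overlapped a domain. Of 24 luminal transcription factor genes 16 did, with a median widest domain of 16613.5 bp. Of these 16 widest domains 15 had a vehicle PR summit and 16 an R5020 PR summit. That is near the share for their width: 94.4% and 100% of all domains of 12000 to under 20000 bp had a PR region. Gene span sets how readily a gene meets a domain, so starts are given too: 12 of the 18 luminal factor genes with a listed start had it inside a domain, where 4.61% of all such genes did. ESR1, the estrogen receptor gene, had 4 domains and PGR 2. FOXA1 lay in a domain of 19749 bp, TFAP2A in 17254 bp, SPDEF in 14051 bp and EHF in 16864 bp. The 8 without a domain were all in some vehicle H3K27Ac region, as were all 24.

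The list of luminal keratin, junction and other epithelial genes had 11 of 18 covered. The 7 keratin and junction genes among them included KRT8 (15368 bp), KRT18 (10428 bp), KRT19 (15188 bp), CDH1, the E-cadherin gene (13135 bp), and CLDN4 (14157 bp). The other 4 were PRLR, the prolactin receptor gene (25531 bp), ERBB3, a growth factor receptor gene (11911 bp), MUC1 (5009 bp) and ESRP1, a splicing factor gene (6662 bp). Estrogen-responsive genes were covered in 11 of 24 cases, with SIAH2 at 14583 bp and STC2 at 15847 bp. Nuclear noncoding RNA genes were covered in 4 of 11, with MALAT1 at 23024 bp and NEAT1 at 13660 bp. Both were fully or nearly fully covered with R5020, at 99.9% and 100%.

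Progestin-responsive genes were covered in 7 of 35 cases. CEBPB, a transcription factor gene, lay in a domain of 11381 bp, GREB1 in 10248 bp, BCL6 in 8084 bp, FKBP5 in 7960 bp and CDKN1A, which encodes a cell cycle inhibitor, in 5402 bp. The FKBP5 domain had 2 PR summits with vehicle and 3 with R5020, and met an R5020 region of 16659 bp. The BCL6 domain had 1 and 3, and met 14321 bp. Each of these 7 genes had PR on its widest domain in both lists, where 68.9% of all domains had it with vehicle and 99.2% with R5020. Their median coverage was 97.7%, against 93.9% over all domains.

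Immediate early and stress-response genes were covered in 7 of 30 cases, with JUNB at 13557 bp, ribosomal protein genes in 5 of 24 and chromatin coregulator genes in 4 of 20, with MED13L at 28576 bp. Of 18 basal and mesenchymal markers 3 were covered, TP63 (7150 bp), ACTA2 (6933 bp) and S100A2 (6029 bp). Their coverage with R5020 lay between 71.9% and 77.4%. These domains were also low, with vehicle folds of 10.5, 9.35 and 7.78 against a median of 13.8 over all domains. None of the 18 genes overlapped an R5020 region of at least 5000 bp, but only 1088 of all 19974 protein-coding genes did. None of the 28 genes of the polymerase III machinery overlapped a domain, although all 28 overlapped a vehicle H3K27Ac region, and none of the 22 markers of other tissues did.

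**Figure D5:**
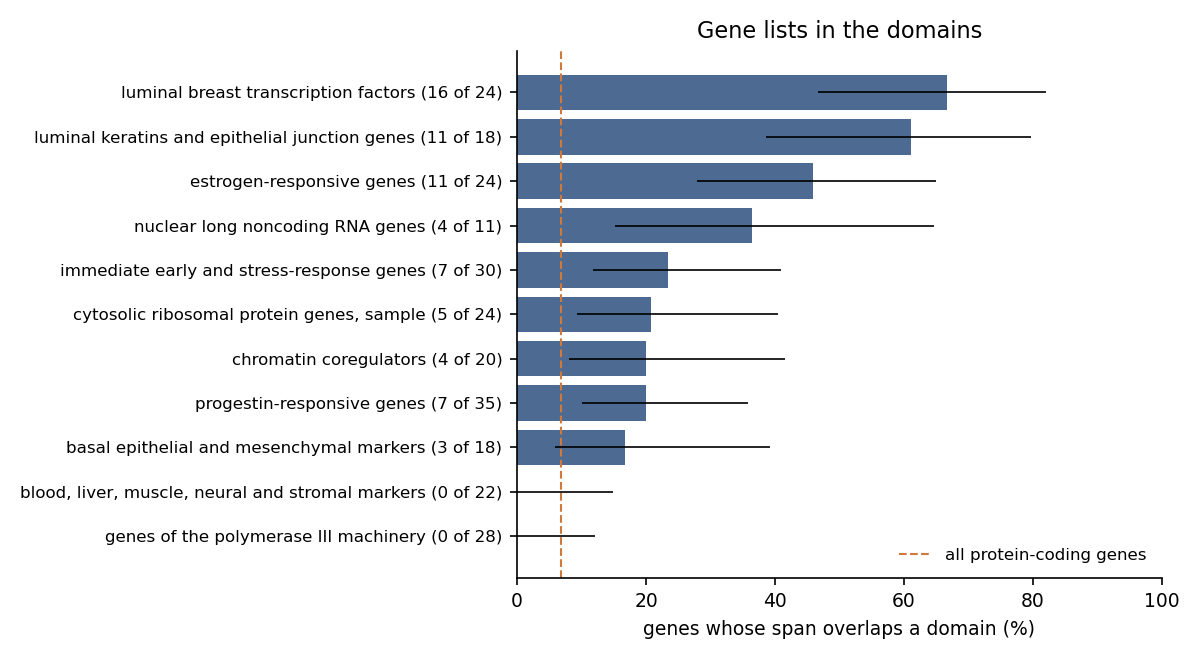
Share of the genes of each list whose span overlaps a domain (horizontal bars, %, with 95% Wilson intervals) and the share of all protein-coding genes, 6.87% (dashed line). The luminal lists are highest, with 16 of 24 and 11 of 18 genes, and the polymerase III and other-tissue lists are at 0.

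Many domains had another nearby. The gap to the next domain had a median of 43247 bp, and 1066 domains (62.5%) lay within 100 kb of another. The spacing of narrower regions was not computed. GSE1 held 12 domains that summed to 199 kb of its 507 kb span, CUEDC1 held 6, and ESR1, ZMIZ1, BCL2L1, CTPS2 and IGF1R held 4 each. The megabase at 85 to 86 Mb of chromosome 16, with GSE1, held 16 domains with a median R5020 coverage of 99.6%, 25 vehicle PR summits and 112 R5020 PR summits. The megabase at 12 to 13 Mb of chromosome 6, with EDN1, HIVEP1 and PHACTR1, held 14 domains with a median coverage of 73.8%, ranging from 26.3% to 91.6%, and 26 vehicle and 64 R5020 PR summits. It was the lowest of the megabases with 6 or more domains, and the lowest chromosome median was 87.3%, on chromosome 21.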

How the data were processed

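Chromatin immunoprecipitation sequencing of T47D cells gave 16 deposited peak lists in narrowPeak layout, 1 for each of 8 antibodies in each treatment. Per the submitters' processing notes, cutadapt, Bowtie2 and MACS2 were used with hg38; versions, settings, controls and the way 3 libraries became 1 list are not given in the sources used here. For every peak the authors give its fold at the summit, a linear ratio, and a −log10 q-value. Depth is unknown, and no list could be replaced by replicates, so no p-value was computed.

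From the lists, regions on chromosomes 1 to 22 and X were kept (0 overlapping rows). Overlap meant at least 1 bp, and a summit was placed by its deposited offset. Summits per Mb and a comparison class of 3000 to under 5000 bp were used because wide regions meet more peaks. Shares have 95% Wilson intervals, which cover counting error of regions only, and neighbouring regions are not independent. Gene spans (59098 genes), start windows and miRNAs came from RefSeq tables on GRCh38.p14. All 254 genes of the 11 lists matched. Overlap counting was tested on simulated intervals. Python 3.11.15, numpy 2.4.6, pandas 2.3.3 and scipy 1.17.1 were used.

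The domains and gene lists were chosen with earlier results of these data known. Named domains were the 10 widest, the 5 of highest fold, most R5020 PR summits, most POLR3G summits, least R5020 coverage and highest POLR3A fold, and those nearest 5000 bp. Motifs, printed windows, miRNAs, width classes, start split, density groups and the named examples beyond that rule were chosen after values were seen. Alternatives were a −log10 q of at least 5, equal list lengths, summit overlap, widths of 4000 and 6000 bp, and leaving out chromosome 1.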

Additional observations from a re-analysis of the deposited data

How the results depend on the processing

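Of 99 alternative values, 64 moved by less than their counting interval and 35 moved by more. Requiring the summit inside the domain (14 values) and leaving out chromosome 1, which has the most domains (17 values), moved none. Peaks with −log10 q of at least 5 gave PR 57.8% with vehicle and 98.5% with R5020, Maf1 22.8% and 76.5%, R5020 Brf1 3.58%, R5020 POLR3C 1.52%, POLR3G 64.9% and 53.6%, and POLR3GL 0.117% in both lists, and left 59.1% of domains covered over at least 90%. Equal numbers of top peaks turned the order of treatments for PR (R5020 43.1%), Brf1 (vehicle 0.821%, R5020 0.762%) and POLR3GL (vehicle 0.352%, R5020 0.528%), nearly closed it for Maf1 (R5020 32.9%), and gave vehicle POLR3G 87.9%. A width of at least 4000 bp (2794 domains) gave PR 59.7% and 98.4%, Maf1 26.7% and 77.3%, R5020 Brf1 4.19%, POLR3G 87.5% and 78.6%, coverage over at least 90% in 59.2%, and an R5020 region of at least 5000 bp on 41.8%. A width of at least 6000 bp (1132 domains) gave PR 74.2% and 99.6%, Maf1 35.5% and 85.9%, POLR3G 93.0% and 85.9%, coverage over at least 90% in 68.8%, and an R5020 region of at least 5000 bp on 67.9%. Counting coverage over at least 50% gave 97.7%, and genes within 5 kb gave 79.4% of domains near a protein-coding gene. The cause was not tested where a construction does not show it. No paired analysis was possible because each antibody and treatment has 1 list with no replicate columns, and for the same reason no replicate could be left out. Depth limits every comparison of treatments, since the lists differ in length and hold no read counts with which to scale them.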
